A study of Mus musculus with 16 samples.

Results

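The 7 genes described here encode chondrogenic and sclerotome transcription factors, followed in mouse intervertebral disc: *Pax1*, *Pax9*, *Nkx3-2*, *Sox9*, *Sox5*, *Sox6* and *Trps1*. They were taken by gene name from a table of 49315 genes, and all 7 were present and passed the filter on low values. The discs came from 16 mice, and the tissue of 4 tail discs was pooled for each mouse, so that each RNA sequencing library stood for 1 animal. There were 3 wild-type mice with intact discs, 4 wild-type mice with injured discs, 4 Adam8EQ mutant mice with intact discs and 5 Adam8EQ mutant mice with injured discs. *Adam8* encodes a membrane-anchored metalloprotease. The series title names DBA, an inbred strain, beside the mutant. The labels give no further description of the EQ allele, and the type of injury, the time after it and the age of the mice are not given in the sources used here.

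These factors act early in the making of the vertebral column. Hedgehog protein from the notochord and floor plate induces the sclerotome, the part of each somite that forms vertebrae and the annulus of the disc, and its cells express the paired-box factors *Pax1* and *Pax9*. *Pax1* and *Pax9* activate the homeobox gene *Nkx3-2*, also called *Bapx1*, a repressor that holds cells on the cartilage path. *Sox9* is the master factor of chondrocytes, and *Sox5* and *Sox6*, close relatives of each other that lack an activation domain of their own, help it to drive the genes of cartilage matrix. *Trps1*, an atypical GATA-type zinc finger, is a repressor that shapes growth plate and joint cartilage.

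The main result was a lower level of *Nkx3-2* after injury. In mutants its mean fell by 72.7%, from 84.5 TPM (a measure scaled for gene length, in which each library sums to 1000000) in intact discs to 23.1 TPM in injured discs. *Sox6* also fell in injured mutants, to a smaller extent, and its call depended on single mice. *Pax1*, *Pax9*, *Sox9*, *Sox5* and *Trps1* did not pass the test in any comparison. In wild-type mice none of the 7 passed, although *Nkx3-2* was lower in every injured mouse than in every intact one, as 6.34% of all genes were.

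The promoters of the genes that fell are shown, as placed by the transcription starts in RefSeq. They are 300 bases each, 250 before and 50 after the transcription start, taken from RefSeq on GRCm38.p6 and written 5′ to 3′ on the strand of the gene. Capitals mark matches to motifs of the factors studied here. The *Nkx3-2* window is chr5:41764171-41764470 on the minus strand, and the *Sox6* window is chr7:116038695-116038994 on the minus strand.
Nkx3-2: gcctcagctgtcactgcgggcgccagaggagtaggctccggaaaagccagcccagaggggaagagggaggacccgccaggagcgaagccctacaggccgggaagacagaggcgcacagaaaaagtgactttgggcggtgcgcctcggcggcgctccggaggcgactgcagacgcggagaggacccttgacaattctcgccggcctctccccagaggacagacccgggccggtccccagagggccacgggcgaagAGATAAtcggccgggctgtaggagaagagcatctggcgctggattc
Sox6: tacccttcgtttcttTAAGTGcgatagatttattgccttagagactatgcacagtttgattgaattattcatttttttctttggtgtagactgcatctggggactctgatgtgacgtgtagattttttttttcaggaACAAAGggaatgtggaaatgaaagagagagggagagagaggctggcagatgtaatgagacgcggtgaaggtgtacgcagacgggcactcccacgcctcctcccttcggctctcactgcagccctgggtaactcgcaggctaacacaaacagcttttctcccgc
Both strands were searched for GACCACCCA, the motif of the GLI factors that carry the hedgehog signal. The SOX motifs searched were ACAAAG (the main form), with ACAATG as a variant that differs from it in the fifth letter. The motif of GATA zinc fingers was AGATAA. For NKX3 factors the motif was TAAGTG. The *Nkx3-2* window held AGATAA, 4 bases after the start, and none of the other 4 motifs. The *Sox6* window held TAAGTG 235 bases before the start and ACAAAG 113 bases before it. Factors that did not pass held such matches too. The *Sox5* window held TAAGTG 27 and ACAATG 154 bases before the start, and the *Pax9* window held them 128 and 12 bases before it. Of 32851 promoters of this length, 0.253% held the GLI motif, 18.7% the main SOX motif, 12.6% its variant, 11.2% the GATA motif and 9.2% the NKX3 motif. The *Nkx3-2* window was rich in G and C, at 66.7% with 25 CpG pairs, against 47.0% and 11 in *Sox6* and medians of 52.7% and 7 over all promoters. A match is a description of letters and not a bound site. Promoters were matched for 5 of the 7 genes, and *Sox9* and *Trps1* are only named. *Sox6* has 6 such windows in RefSeq, of which the one shown lies at the start of the annotated gene. The *Nkx3-2* window lies wholly within the annotated gene, chr5:41761483-41764501. Its RefSeq start is therefore downstream of the annotated 5′ end.

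The implied depth was 10219764 to 24880822 reads per library, computed from the TPM values. The libraries carried the markers of the labelled tissue. Summed levels of 7 disc and cartilage markers were 26661 to 32417 TPM in intact wild types, 6523 to 24658 in injured wild types, 31697 to 35534 in intact mutants and 5267 to 17767 in injured mutants. Sums over 6 notochordal markers in the same order were 15389 to 15815, 3047 to 11134, 7024 to 14904 and 581 to 7023 TPM. Markers of 6 macrophage genes summed to 110 to 131, 151 to 1281, 114 to 161 and 323 to 1859 TPM, and those of 6 neutrophil genes to 5.33 to 5.34, 3.08 to 178, 1.57 to 2.55 and 12.8 to 920 TPM. No marker of these 4 lists was at 0 in every library, and *Mpo* was under 1 TPM in all. By the test described below, 5 of 6 macrophage and 3 of 4 tested neutrophil markers rose after injury in mutants, where 13.1% of all genes rose. Of the disc markers 4 of 7 fell and 3 did not pass, and of the notochordal markers 4 of 6 fell, where 17.7% of all genes fell. Wild-type injured mouse 3 and mutant injured mouse 2 had the highest macrophage sums and the lowest disc sums of their groups. Mouse 3 also stood apart in the sum of tendon and annulus markers, at 6726 TPM against 1300 to 2375 in the other injured wild types. That sum was mostly *Col1a1*, at 6014 TPM, and *Thbs4*, at 613. The other markers of the list did not share the rise. *Mkx* was at 54.6 TPM in mouse 3 against 128 to 165, *Tnmd* at 12.7 against 12.5 to 23.1 and *Scx* at 31.0 against 16.9 to 30.5. In endothelial markers mouse 3 was at 173 TPM against 6.22 to 57.5. Skeletal muscle markers were highest in wild-type intact mouse 1, at 687 TPM, and mutant injured mouse 4, at 542, against 21.3 to 333 in the other 14 mice. In these bulk samples fewer cells of a type and less RNA per cell cannot be told apart. The part of this shift in cell markers in the results below was not tested. *Adam8* itself was at 1.24 to 1.69 TPM in intact wild types, 3.52 to 66.3 in injured wild types, 0.956 to 2.97 in intact mutants and 16.2 to 264 in injured mutants, and these levels do not check the EQ allele.

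Each gene was tested with limma on log2(TPM + 1), with p-values adjusted over 24188 tested genes by the Benjamini-Hochberg method and a threshold of 0.05. A change is the difference of group means on that scale, given with its standard error (SE) or its 95% interval. Injury in mutants moved much of the transcriptome, since 30.8% of all tested genes passed, 13.1% higher and 17.7% lower. Of the 7 factors, 2 passed there, both lower, so that their share was near this background and is no result about the group as such. Groups that did not overlap were found for 12% of all genes with injured mutants higher and 15.3% with them lower. Injury in wild types called 0.116% of all genes (0.107% higher and 0.00827% lower) and 0 of the 7 factors, of which 1 had an unadjusted p under 0.05. Nothing in the labels says whether mice of a group came from separate litters or days, and the p-values rest on the spread between these mice. In limma that spread is estimated over all groups together and drawn toward that of genes of like level.

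**Figure D1:**
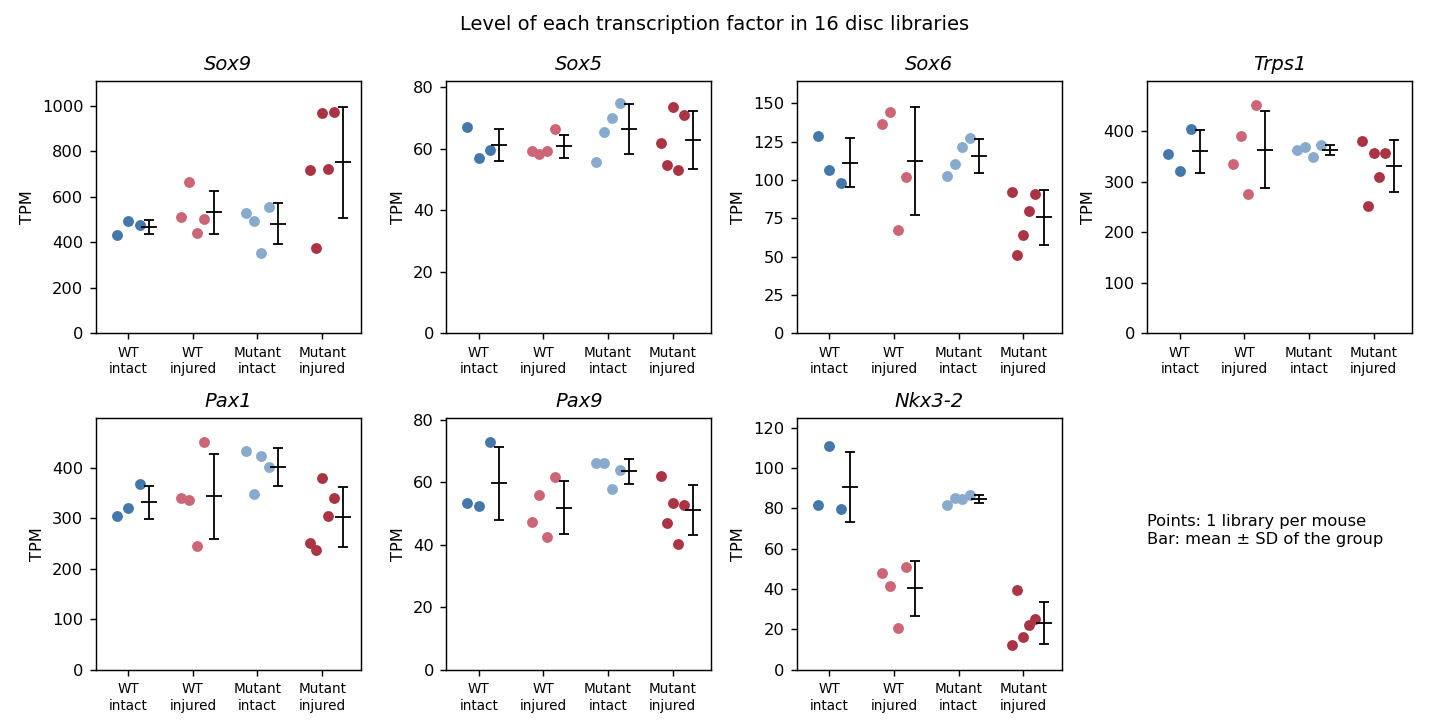
Level of each factor in TPM (vertical axis, from 0) in each of the 16 mice, by group; points are mice, and the bar beside them is the group mean with its SD. All injured mice lie below all intact mice in Nkx3-2, a separation whose share over all genes was not computed, while in Sox5, Trps1 and Pax9 the groups overlap.

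*Nkx3-2* (ENSMUSG00000049691, protein coding, chr5:41761483-41764501 on the minus strand, GRCm38) had the strongest response. In intact discs its level was 81.4, 110.7 and 79.7 TPM in the 3 wild types and 81.7, 85.1, 84.5 and 86.7 TPM in the 4 mutants. In injured discs it was 47.9, 41.4, 20.7 and 51.1 TPM in the 4 wild types and 12.2, 39.6, 16.04, 22.3 and 25.4 TPM in the 5 mutants. Every injured mouse was below every intact mouse of either genotype, a separation whose share over all genes was not computed. Within mutants, injured mice lay wholly below intact mice in 15.3% of all genes, and within wild types in 6.34%. How unusual the separation over both genotypes is was therefore not tested. Intact mutants were close to each other, with a mean ± SD of 84.5 ± 2.10 TPM (n = 4). The mean was 90.6 ± 17.4 in intact wild types (n = 3), 40.3 ± 13.7 in injured wild types (n = 4) and 23.1 ± 10.6 in injured mutants (n = 5).

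In mutants *Nkx3-2* fell by 1.93 ± 0.29 (SE) on the log2 scale (limma, adjusted p = 0.00072; 95% interval -2.56 to -1.31). Without mutant injured mouse 2 the change was -2.15 (limma, adjusted p = 0.00027). The call was kept in all 21 alternative analyses, with changes from -2.15 to -1.74 and limma adjusted p from 5.9e-05 to 0.039. Within the mutants whose library names begin with M the change was -1.98, and within those that begin with A8 it was -1.87. In wild types the log2 difference was -1.21 ± 0.33, with a limma adjusted p of 0.136 and a 95% interval of -1.92 to -0.50. There the groups did not overlap either, which held for 6.34% of all genes with injured mice lower and for 9.22% with them higher. Without wild-type injured mouse 3 the difference was -0.93, and the call was missed in all 16 alternatives, with adjusted p from 0.067 to 0.339.

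Wild-type and mutant intact discs did not differ detectably in *Nkx3-2* (difference -0.08 on the log2 scale, 95% interval -0.79 to 0.62). Injured mutants had a mean 42.6% below that of injured wild types, a log2 difference of -0.81 ± 0.29 that missed the threshold (limma, adjusted p = 0.145), and the groups overlapped. That result turned on wild-type injured mouse 3, which had the lowest level of its group at 20.7 TPM. Without it the difference was -1.09 and passed (limma, adjusted p = 0.026). Calls over all genes rose from 222 to 2272 when this mouse was left out. Injury moved *Nkx3-2* by -0.72 ± 0.44 more in mutants than in wild types, which was not called (limma, adjusted p = 0.691), so a larger change in mutants was not shown.

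Markers of other cells varied within the injured groups beside *Nkx3-2*. Among injured mutants, mouse 2 had the highest macrophage sum, 1859 TPM, and the highest *Nkx3-2*, 39.6 TPM. Mouse 1 had the lowest notochordal sum, 581 TPM, and the lowest *Nkx3-2*, 12.2 TPM. Among injured wild types, mouse 3 had both the highest macrophage sum, 1281 TPM, and the lowest *Nkx3-2*, 20.7 TPM. *Nkx3-2* is also the factor with the fewest reads, an implied 90 to 605 per library, as computed here from the TPM values and gene lengths. Its annotated exons are also the shortest of the 7 genes, 1718 bases in all. The part of these marker levels in the result was not tested.

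*Pax1* and *Pax9*, which act above *Nkx3-2* in the embryo, stayed closer to their intact levels. *Pax1* (ENSMUSG00000037034, chr2:147361925-147393295, plus strand) was at 305.3, 320.5 and 368.4 TPM in intact wild types and 339.8, 337.0, 246.0 and 451.6 TPM in injured wild types. In mutants it was at 433.2, 348.9, 423.1 and 401.2 TPM in intact discs and 252.0, 238.1, 380.2, 304.8 and 341.2 TPM in injured discs. Only mutant injured mouse 3 reached into the range of the intact mutants. The log2 difference in mutants was -0.42 ± 0.17 and missed the threshold (limma, adjusted p = 0.069), while in wild types it was 0.02 ± 0.19. Without mutant injured mouse 3 the *Pax1* difference in mutants was -0.51 and passed (limma, adjusted p = 0.039), and it also passed with the library naming as a covariate (-0.45, limma adjusted p = 0.037).

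*Pax9* (ENSMUSG00000001497, chr12:56691767-56712822, plus strand) was the lowest or next to lowest of the 7 in every group. It was at 53.4, 52.6 and 73.1 TPM in intact wild types and 47.4, 56.1, 42.5 and 61.6 TPM in injured wild types. Intact mutants had 66.1, 66.2, 57.9 and 63.9 TPM, and injured mutants had 62.1, 47.0, 53.4, 40.4 and 52.9 TPM. In mutants only injured mouse 1 exceeded the lowest intact mouse. The log2 difference was -0.32 ± 0.14 in mutants (limma, adjusted p = 0.092) and -0.20 ± 0.16 in wild types (limma, adjusted p = 0.528). In mutants it passed without injured mouse 1 (-0.39, limma adjusted p = 0.0499) and with limma's sample weights (-0.33, adjusted p = 0.048).

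Of 15 genes that overlap one of the 7 factors or lie within 3000 bases of it, 4 fell and 1 rose in mutants after injury, where 17.7% of all genes fell and 13.1% rose. *Gm15524*, an antisense transcript at the start of *Pax9*, fell by 1.32 (limma, adjusted p = 0.0003), and *Slc25a21*, which overlaps the far end of *Pax9*, fell by 0.89 (limma, adjusted p = 0.0066). *AI646519*, antisense across the start of *Pax1*, fell by 1.05 (limma, adjusted p = 0.029). *BC006965*, beside *Sox9* on the other strand, fell by 1.28 (limma, adjusted p = 0.010), and *Mir1907*, within *Trps1* on the same strand, rose by 2.06 (limma, adjusted p = 0.029) at 0 to 13.1 TPM. The levels of the *Pax9* and *Pax1* neighbours were 13.2 to 56.4, 1.11 to 5.41 and 1.97 to 16.1 TPM over all mice. Whether the counting used strand is not given in the sources used here. Where a gene and its partner overlap, reads in the shared bases therefore cannot be told apart. No annotated gene overlaps *Nkx3-2* or *Sox9*.

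*Sox9* (ENSMUSG00000000567, chr11:112782224-112787760, plus strand) was the highest of the 7 factors in every group. It was at 431.4, 493.3 and 475.0 TPM in intact wild types and 512.8, 666.3, 442.1 and 503.3 TPM in injured wild types. Intact mutants had 526.2, 494.4, 353.0 and 553.7 TPM, and injured mutants had 717.6, 376.0, 967.7, 721.4 and 971.9 TPM. In mutants 4 of the 5 injured mice were above all intact mice, and injured mouse 2 was below 3 of the 4. The mean was 751 ± 244 TPM in injured mutants (n = 5) against 482 ± 89.3 in intact mutants (n = 4).

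The *Sox9* log2 difference in mutants was 0.58 ± 0.24 and missed the threshold (limma, adjusted p = 0.076; 95% interval 0.08 to 1.09). Injured mouse 2 had the highest macrophage sum and the lowest disc marker sum of the mutants, and without it the difference was 0.81 and passed (limma, adjusted p = 0.0043). With that mouse kept, it also passed under median-of-ratios scaling (0.67, limma adjusted p = 0.041) and under limma's sample weights (0.69, adjusted p = 0.013). The mutants also split by library name: the difference was 0.99 among those that begin with M (limma, adjusted p = 0.045) and 0.03 among those that begin with A8 (limma, adjusted p = 0.963), a split that sets mouse 2 in a group of only 2 injured mice. In wild types the *Sox9* difference was 0.17 ± 0.27, and between injured mutants and injured wild types it was 0.44 ± 0.24 (limma, adjusted p = 0.314).

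*Sox6* (ENSMUSG00000051910, chr7:115470872-116038796, minus strand) fell in mutants. It was at 102.6, 110.4, 121.5 and 127.7 TPM in intact mutants and 92.2, 50.9, 64.4, 79.7 and 90.8 TPM in injured mutants. All injured mutants were below all intact mutants. It fell by 0.63 ± 0.21 on the log2 scale (limma, adjusted p = 0.034; 95% interval -1.09 to -0.18), and its mean fell by 34.6%. The call was lost without intact mouse 2, 3 or 4 or injured mouse 2 or 3, with limma adjusted p from 0.064 to 0.087. Without injured mouse 2 the change was -0.50. The call was also lost with no filter on low values (limma, adjusted p = 0.051) and among only the mutants named M (-0.68) or A8 (-0.63). Over all 21 alternatives the change ran from -0.71 to -0.50.

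In wild types *Sox6* was at 129.0, 106.7 and 98.2 TPM in intact discs and 136.3, 144.1, 67.5 and 102.0 TPM in injured discs. Injured mice 1 and 2 were above every intact mouse and mouse 3 was below every one. The log2 difference was -0.04 ± 0.24 (limma, adjusted p = 0.955), and it was 0.19 without mouse 3. Between injured mutants and injured wild types it was -0.54 ± 0.21 (limma, adjusted p = 0.173), and without wild-type injured mouse 3 it was -0.76 and passed (limma, adjusted p = 0.025). Leaving out that mouse raised the calls over all genes from 222 to 2272. Injury moved *Sox6* by -0.60 ± 0.32 more in mutants than in wild types, which was not called (limma, adjusted p = 0.647). *Sox6os*, an antisense transcript within *Sox6* at 14.7 to 70.9 TPM, had a difference of -0.46 ± 0.32 in mutants (limma, adjusted p = 0.299).

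*Sox5* (ENSMUSG00000041540, chr6:143828425-144781977, minus strand) is the closest relative of *Sox6*. Its levels were 67.1, 57.0 and 59.5 TPM in intact wild types, 59.2, 58.2, 59.3 and 66.4 in injured wild types, 55.6, 65.5, 70.1 and 74.9 in intact mutants and 61.8, 54.6, 73.7, 53.2 and 71.1 in injured mutants. All 4 groups overlapped. The log2 difference after injury was -0.08 ± 0.11 in mutants (95% interval -0.32 to 0.16) and -0.01 ± 0.13 in wild types (95% interval -0.28 to 0.26). Of the annotated genes that overlap *Sox5*, the antisense transcripts *Sox5os4* and *Sox5os5* reached 36.2 to 67.7 and 43.3 to 94.6 TPM, levels near that of *Sox5* itself. The ratio of *Sox5* to *Sox6* lay apart between injured and intact mutants. It did not pass after adjustment over the ratios of all pairs (exact permutation test, adjusted p = 0.121). Its unadjusted p was already the smallest that 5 against 4 mice allow, and could pass only if many other ratios reached it too. A different response of the relatives was therefore not shown, and the test could not exclude one.

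*Trps1* (ENSMUSG00000038679, chr15:50654752-50890463, minus strand) was also close to level across the groups. It was at 355.5, 320.4 and 404.8 TPM in intact wild types and 336.2, 390.5, 275.7 and 452.7 TPM in injured wild types. Intact mutants had 363.6, 368.4, 349.8 and 372.3 TPM, and injured mutants had 380.0, 252.6, 356.4, 309.7 and 357.2 TPM. Wild-type injured mouse 3 and mutant injured mouse 2 were the lowest of all 16. The log2 difference was -0.15 ± 0.14 in mutants (limma, adjusted p = 0.466; 95% interval -0.46 to 0.16) and 0.00 in wild types (95% interval -0.35 to 0.35). *Trps1* had the most reads of the 7 factors, an implied 11490 to 29458 per library, so counting error was smallest there.

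**Figure D2:**
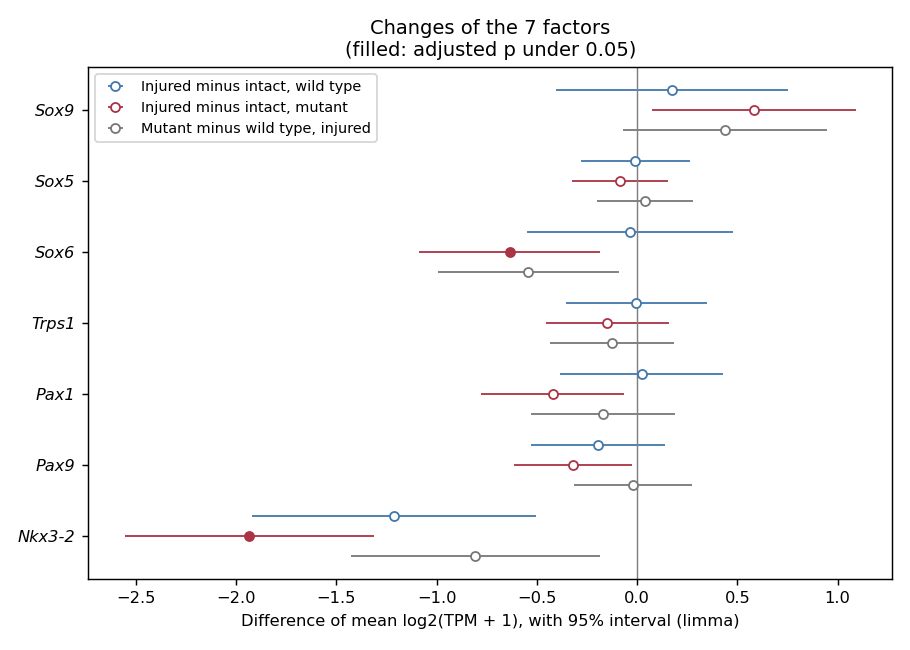
Difference of group means of log2(TPM + 1) for each factor (horizontal axis, log2 units) with its 95% interval from limma, for injury in wild types, injury in mutants, and mutant against wild type in injured discs; filled points have an adjusted p under 0.05. Only Nkx3-2 and Sox6 in injured mutants are filled, at -1.93 and -0.63.

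Genotype alone called none of the 7 factors. In intact discs 0.0165% of all genes passed (0.00413% higher in mutants and 0.0124% lower), no factor had an unadjusted p under 0.05, and all 7 overlapped between the genotypes. Over all genes 2.77% lay apart with mutants higher and 3.41% with mutants lower. The largest difference was that of *Pax1*, 0.28 higher in mutants on the log2 scale with a 95% interval of -0.13 to 0.68. In injured discs 0.918% of all genes passed (0.19% higher in mutants and 0.728% lower), and *Nkx3-2* and *Sox6* had unadjusted p-values of 0.014 and 0.022 in limma. All 7 overlapped there as well, while 0.905% of all genes lay apart with mutants higher and 3.86% with mutants lower. A test of whether injury acted differently in the 2 genotypes called 0% of all genes and no factor, and none of the 7 had an unadjusted p under 0.05. These comparisons share groups of mice, so they are not independent of each other.

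The order of the factors changed with injury at its lower end. In both intact groups *Nkx3-2* was the fifth, below *Sox6* and above *Sox5* and *Pax9*. In both injured groups it was the lowest of the 7. In injured mutants its range lay wholly below that of *Pax9*, the next factor, and in injured wild types the ranges of both overlapped. At the upper end *Sox9*, *Trps1* and *Pax1* were above *Sox6* in every mouse of every group. *Sox9* and *Trps1* did not overlap in intact wild types, and they did in injured wild types. *Pax9* and *Sox5* overlapped in all 4 groups. The sum of the 7 factors was 1423 to 1559 TPM in intact wild types, 1154 to 1694 in injured wild types, 1460 to 1680 in intact mutants and 1059 to 1912 in injured mutants.

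The balance between *Sox9* and its partner *Sox6* was examined within each library after these values had been seen. The ratio of their TPM was 3.34, 4.62 and 4.84 in intact wild types, 3.76, 4.62, 6.55 and 4.94 in injured wild types, and 5.13, 4.48, 2.91 and 4.34 in intact mutants. In injured mutants it was 7.78, 7.39, 15.0, 9.05 and 10.7. All 5 injured mutants were above all 11 other mice, mouse 2 included. The exact two-sided permutation p was 0.0159 against intact mutants and against injured wild types, the smallest that 5 against 4 mice allow. With 84 such tests, over 21 pairs of factors and 4 comparisons, the adjusted p was 0.121, and no ratio passed. A ratio at this smallest p could pass only if many more ratios reached it, and tests of 4 against 3 mice cannot go below 0.057. Missing the threshold therefore does not decide on *Sox9* against *Sox6*. This pair was not alone: between injured and intact mutants 10 of the 21 pairs lay apart with the same smallest p, 5 of which hold *Nkx3-2*. *Sox9* against *Pax1* and *Sox9* against *Trps1* were among them. Between injured mutants and injured wild types only *Sox9* against *Sox6* lay apart.

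**Figure D3:**
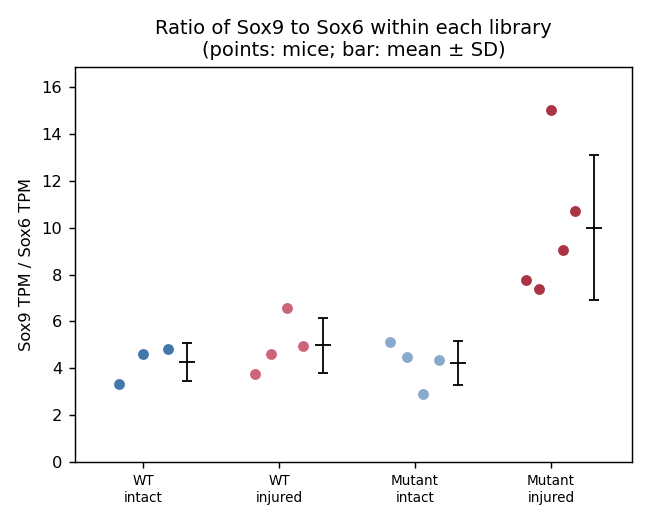
Ratio of Sox9 to Sox6 TPM within each library (vertical axis, from 0), by group; points are mice and the bar is the mean with its SD. The 5 injured mutants lie between 7.39 and 15.0, above the highest of the other mice at 6.55.

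Genes of the hedgehog pathway, which lies above the sclerotome factors, moved in one direction in injured mutants. Of 9 listed genes 7 were tested, and 5 of these fell while 0 rose, where 17.7% of all genes fell. Their median log2 change was -1.26, against -0.08 for all tested genes. The list was chosen with earlier results of these data known, and a gene was taken out of it. These counts therefore describe the listed genes and are no test of the pathway. *Gli1*, a transcription factor that is also the standard readout of the pathway, was at 91.4, 101.2, 103.3 and 111.8 TPM in intact mutants and 17.99, 25.5, 14.9, 29.6 and 26.4 TPM in injured mutants. It fell by 2.15 ± 0.23 (limma, adjusted p = 0.00015). The groups did not overlap, and the call was kept in all 21 alternatives.

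The other hedgehog genes that fell in mutants were the receptor *Ptch1* (-1.26), the signal transducer *Smo* (-1.64), the transcription factor *Gli2* (-1.55) and the ligand-binding inhibitor *Hhip* (-0.85). *Gli3* and the inhibitor *Sufu* did not pass, with -0.15 and -0.03. *Gli2* kept its call in all 21 alternatives. *Ptch1* lost its call among mutants whose library names begin with A8 (limma, adjusted p = 0.092), and *Smo* among those that begin with M (limma, adjusted p = 0.056). *Hhip* was low, at 0.684 to 2.01 TPM in intact mutants and 0.138 to 0.616 in injured mutants. It was tested in 16 of the 21 alternatives and passed in each, and in the rest it failed the filter on low values. Over the alternatives 3 to 5 of the listed genes fell and 0 rose, and without mutant injured mouse 2 all 5 still fell. The ligand gene *Shh* was below 1 TPM in every mouse, and *Ihh* was at most 1.28 TPM, so neither was tested.

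In injured wild types 0 of the 7 hedgehog genes passed, 2 had an unadjusted p under 0.05, and the median was -0.34. *Gli1* was at 93.6, 92.0 and 87.2 TPM in intact wild types and 85.1, 75.2, 35.4 and 63.2 TPM in injured wild types. All injured mice were below all intact ones, by -0.55 ± 0.26 on the log2 scale (limma, adjusted p = 0.288). Between injured mutants and injured wild types, *Gli1* was lower by 1.43 ± 0.23 (limma, adjusted p = 0.026), the only call among the 7. Without wild-type injured mouse 3, 4 of the 7 passed as lower in mutants, and without mutant injured mouse 2 or 4 there were 2. Without wild-type injured mouse 1 or 2 or mutant injured mouse 3, 0 passed. Calls over all genes moved too, from 222 with all mice to 2272 without wild-type injured mouse 3. They were 676 without mutant injured mouse 2 and 637 without mutant injured mouse 4. Without wild-type injured mouse 1 or 2 or mutant injured mouse 3 they were 9, 7 and 11. *Gli1* also lost this call in a fit of only the 2 injured groups (limma, adjusted p = 0.192). The difference of injury effects had an unadjusted p under 0.05 in 5 of the 7 genes and passed in 0 after adjustment.

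**Figure D4:**
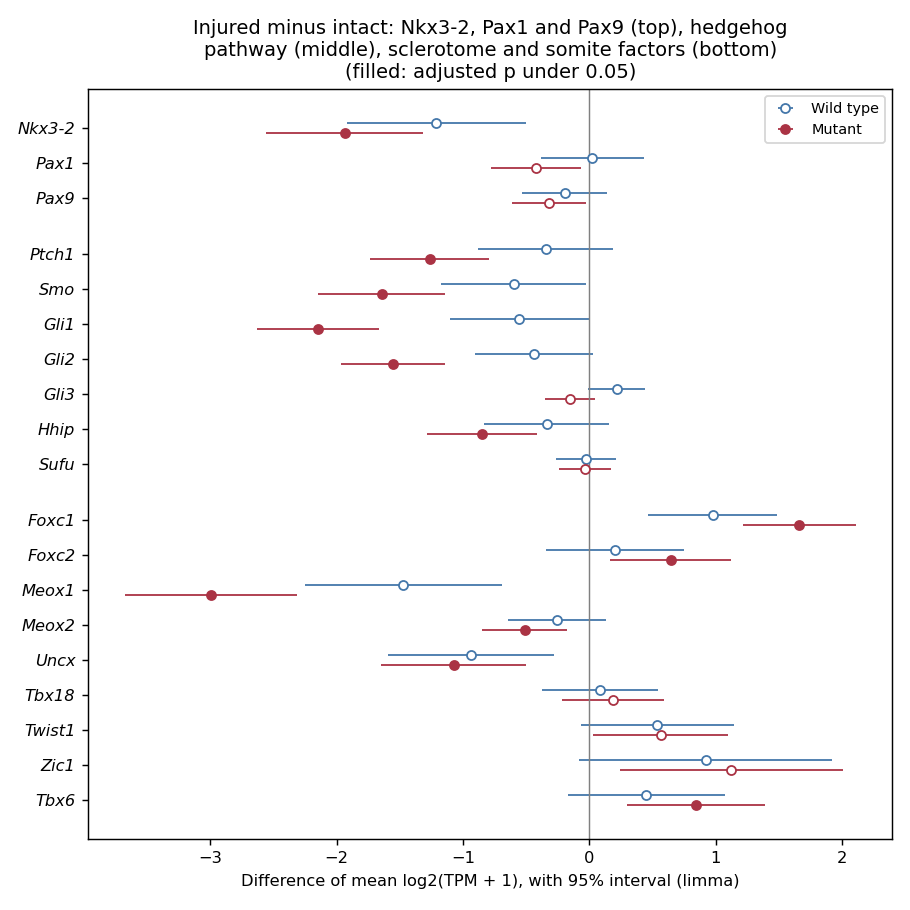
Injured minus intact difference of mean log2(TPM + 1) (horizontal axis) with its 95% interval, in wild types and mutants, for Nkx3-2, Pax1 and Pax9, for the hedgehog genes and for other sclerotome and somite factors; filled points have an adjusted p under 0.05. In mutants 5 hedgehog genes are filled on the left, and in wild types no gene is filled.

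Other factors of the somite and sclerotome did not share a direction. Of 9 tested genes in injured mutants, 3 rose and 3 fell, where 13.1% of all genes rose and 17.7% fell. *Meox1*, a somite homeobox factor that acts on *Nkx3-2* in the embryo, was at 49.0, 31.9, 49.7 and 46.4 TPM in intact mutants and 1.32, 8.32, 3.98, 7.88 and 4.78 TPM in injured mutants. It fell by 2.99 ± 0.32 (limma, adjusted p = 0.00016), the largest change in this list, and kept its call in all 21 alternatives. In wild types *Meox1* was at 51.3, 56.6 and 42.7 TPM in intact discs and 17.2, 18.8, 13.1 and 21.2 TPM in injured discs. The groups did not overlap, and the difference of -1.47 ± 0.36 was not called (limma, adjusted p = 0.119). *Meox1* was also lower in injured mutants than in injured wild types, by 1.71 ± 0.32 (limma, adjusted p = 0.030), a call kept in 13 of 21 alternatives.

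Its relative *Meox2* fell in mutants by 0.51 and *Uncx*, a homeobox factor of the posterior sclerotome, by 1.07, with *Uncx* at only 0.781 to 4.81 TPM in mutants. The forkhead factors *Foxc1* and *Foxc2* rose by 1.66 and 0.64, and *Tbx6* rose by 0.84. *Foxc1* kept its call in all 21 alternatives, *Meox2* in 13 and *Foxc2* in 8. *Twist1*, *Tbx18* and *Zic1* did not pass, with 0.56, 0.19 and 1.12. Without mutant injured mouse 1 or 2, or intact mouse 2 or 4, only 1 gene of the list rose, and among only the mutants named M or only those named A8 1 rose and 1 fell. In wild types 0 of the 9 passed, and 3 had an unadjusted p under 0.05 in limma.

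Other SOX genes gave 2 calls among 5 tested in injured mutants, *Sox12* (-1.54, kept in 20 of 21 alternatives) and *Sox4* (-0.85, kept in 6). Only *Sox12* passed without any 1 of the intact mice or without injured mouse 1 or 3. *Sox8*, a relative of *Sox9*, had -1.30 and did not pass (limma, adjusted p = 0.055). Over all genes 13.1% rose and 17.7% fell in injured mutants, the shares to set beside each list of this paragraph. Of 17 further chondrocyte and bone factors, 7 rose and 5 fell in mutants. The risers included the RUNX factors *Runx1* (1.45), *Runx2* (0.82) and *Runx3* (2.43), of which *Runx2* drives chondrocyte maturation and bone formation, and *Atf4* (1.62), a stress-response factor. Those that fell were *Barx1*, *Barx2*, *Hoxa2*, *Dlx5* and *Zfp521*, and the number that fell was 1 to 3 without mutant intact mouse 1, 2 or 4 or injured mouse 1, 2 or 3. *Runx1* and *Runx3* are also expressed in blood cells. Macrophage sums were 323 to 1859 TPM in these injured mutants against 114 to 161 in intact ones, and their part in these changes was not tested. Of 5 tendon and annulus factors 4 fell, among them *Mkx*, a homeobox factor of tendon and outer annulus (-1.27), and *Scx* (-0.57), a tendon factor that kept its call in 6 of 21 alternatives. Without mutant intact mouse 2, 3 or 4 or injured mouse 1, 3, 4 or 5 only 2 genes of the list fell. Among only the mutants named M the other SOX genes gave 0 higher and 1 lower call, the chondrocyte and bone factors 3 and 0 and the tendon factors 0 and 1, and among those named A8 these were 0 and 1, 5 and 2, and 0 and 0. In wild types 0 genes of these 3 lists passed, while limma gave 6 of the chondrocyte and bone factors an unadjusted p under 0.05.

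Genes of cartilage matrix and growth, many of which the SOX factors activate, were set beside *Sox9*, *Sox5* and *Sox6*. Of 21 tested genes in injured mutants, 3 rose, 7 fell and 11 did not pass, and the median was -0.38. Over all genes 13.1% rose and 17.7% fell, so the 3 that rose were near the share of all genes. Without mutant injured mouse 2 the median was -0.04. *Acan*, the core protein of aggrecan, was at 6310, 5926, 5927 and 6913 TPM in intact mutants and 4515, 2426, 6676, 7024 and 6746 TPM in injured mutants. *Col2a1*, the collagen of cartilage, was at 2084, 1946, 3316 and 3251 TPM in intact mutants and 3511, 658, 3713, 3218 and 3557 TPM in injured mutants. Both overlapped between the groups, with log2 differences of -0.29 ± 0.35 and -0.04 ± 0.58. Mouse 2 was the lowest in both genes, as it was in *Sox9* among injured mutants.

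The cartilage genes that fell were *Comp* (-2.54), *Chad* (-2.71), *Cnmd* (-3.22), *Ucma* (-3.76), *Cytl1* (-3.77), *Col9a3* (-1.63) and the growth factor receptor *Fgfr3* (-1.14). *Comp*, a matrix protein that joins collagens, was at 3799, 3449, 3849 and 3644 TPM in intact mutants and 250.5, 402.2, 681, 1324 and 1129 TPM in injured mutants. The groups lay apart. *Hapln1*, the link protein of aggrecan, rose by 1.19, *Matn4* by 1.12 and *Epyc* by 1.64. *Hapln1* was at 573 to 631 TPM in intact mutants and 986 to 2313 in injured mutants. The other 2 were low, *Matn4* at 0 to 0.685 and 1.15 to 2.94 TPM and *Epyc* at 0.158 to 0.614 and 0.929 to 5.46 TPM. *Ucma* kept its call in all 21 alternatives, and *Epyc* in 7 of 20. Without any 1 mutant mouse 2 to 3 genes of the list rose and 5 to 8 fell. Among only the mutants named M 0 rose and 1 fell, and *Comp*, *Chad*, *Cnmd* and *Cytl1* lost their calls there (limma, adjusted p from 0.065 to 0.116). Among those named A8 1 rose and 5 fell. In wild types 0 of the 21 passed, 5 had an unadjusted p under 0.05, and the median was 0.04. Without wild-type injured mouse 3 that median was 0.52, and without injured mouse 1 or 2 it was -0.09.

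**Figure D5:**
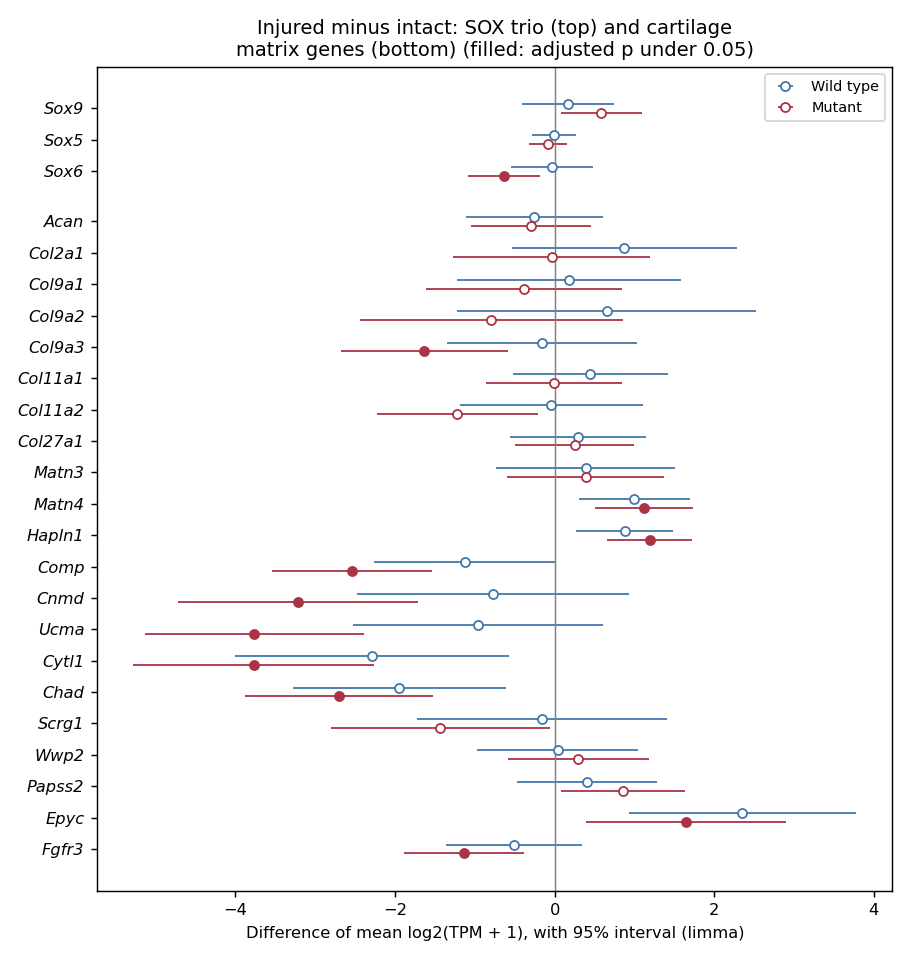
Injured minus intact difference of mean log2(TPM + 1) (horizontal axis) with its 95% interval, in wild types and mutants, for Sox9, Sox5 and Sox6 and for 21 genes of cartilage matrix and growth. Filled points have an adjusted p under 0.05. In mutants 7 of the 21 genes, Fgfr3 among them, are filled on the left and 3 on the right, while Acan and Col2a1 are open and near 0.

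The genes most like each factor were found by Pearson's r of log2(TPM + 1) over the 16 mice, among 11936 genes whose mean was 5 TPM or more. The mice share their groups, so r is a description and has no p. *Nkx3-2* had the closest likenesses, *Trappc9* (r = 0.983), *Nrtn* (0.973) and *Epn3* (0.962). After group means were subtracted *Trappc9* was still its nearest gene (0.912), before *Nrtn* (0.898) and *Ucma* (0.886). *Sox6* was nearest to *Ide* both ways, with 0.949 and 0.922. *Sox9* was nearest to *Plekha1* (0.895), *Pax1* to *Hoxc9* (0.889), *Pax9* to *Tcf4* (0.909) and *Trps1* to *Nfat5* (0.918). *Sox5* had the weakest likeness, 0.765 with *Mir31*. Among the factors themselves, *Pax9* and *Trps1* (0.815) and *Pax1* and *Trps1* (0.702) went together most within groups, while *Nkx3-2* and *Sox6* had 0.07.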

How the data were processed

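RNA was sequenced from intervertebral discs of 16 mice. Per the labels' protocols, ribosomal RNA was depleted before library preparation, while the molecule field reads polyA. The authors deposited 1 table of TPM values, each library summing to 1000000. The submitters' processing notes name bcl2fastq 2.20 and GRCm38; the aligner, the counter and its use of strand are not given in the sources used here. Groups came from the titles, since the genotype field of the wild types is cut short. Multiplying TPM by exon length and dividing by the worth of a read gave reads that were whole, with a tolerance of 0.05, for 94.0% to 94.9% of values below 20 reads, and implied 10219764 to 24880822 reads per library.

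Genes with at least 1 TPM in 3 libraries (24188) were fitted with limma 3.58.1 in R 4.3.3 (lmFit, eBayes with trend) on log2(TPM + 1), with 1 mean per group over all 16 libraries. On the log2(TPM + 1) scale a fold change of a low gene is understated. A fit on simulated data was checked. Positions came from GENCODE on GRCm38, in which 49056 of 49315 identifiers were found. Exact permutation tests used scipy 1.17.1. The factors and gene lists were chosen with earlier results of these data known. A hedgehog gene was taken out of its list and is not reported here. Beyond them, the text names the 3 genes most like a factor, *Adam8*, and genes that overlap a factor. Alternatives were another pseudocount (0.1), other filters, median-of-ratios and quantile scaling, no trend, sample weights, a replicate block, library naming (A8 or M), only the groups compared, and each mouse left out.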

Additional observations from a re-analysis of the deposited data

Results flagged for a closer look

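Of 21 combinations of a factor and a group of 4 or 5 mice, 1 had a mouse far from the others by Dixon's criterion. *Sox5* in wild-type injured mouse 4 was at 66.4 TPM, above 58.2 to 59.3 TPM in the other 3, and its gap was 0.868 of the range of the group. Chance gives such a gap in about 1 in 20 groups.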

How the results depend on the processing

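Same-numbered mice of different groups are different animals, and 14 correlations of their deviations ranged from -0.217 to 0.078, so the numbers were not taken as pairs. With the number as a replicate block, calls over all genes went from 28 to 5 for injury in wild types, from 7438 to 6191 in mutants, from 4 to 2 between intact genotypes and from 222 to 11 between injured genotypes, and the factors called stayed 0, 2, 0 and 0. Under the replicate block the sign turned for *Pax1* in wild-type injury (-0.033), *Sox9* (-0.0046) and *Trps1* (-0.017) between intact genotypes and *Sox5* between injured genotypes (-0.0085), all of them uncalled before and after.

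For injury in mutants, 1 factor (*Sox9*) was called higher with median-of-ratios scaling, sample weights or only the mutants named M. Only 1 factor (*Nkx3-2*) was called lower with no filter or with only the mutants named M or A8. Between injured genotypes 1 factor (*Nkx3-2*) was called lower with sample weights. Leaving out each mouse gave 0 to 1 higher and 1 to 3 lower calls for injury in mutants, and 0 to 2 lower between injured genotypes. The cause of these moves was not tested, beyond the fewer mice in a subset.

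The remaining changes of sign were of uncalled differences. With median-of-ratios scaling they were *Sox5* in mutant injury (0.0052), *Pax9* between injured genotypes (0.088) and *Sox5* in the difference of injury effects (0.023). Quantile scaling turned *Trps1* in wild-type injury (0.053). Sample weights turned *Sox6* (0.012) and *Trps1* (0.084) in wild-type injury and *Sox6* between intact genotypes (-0.0029). Among mutants named M the sign turned for *Sox9* between intact genotypes (-0.075) and *Pax1* between injured genotypes (0.021). Among those named A8 it turned for *Sox5* (-0.016) and *Sox6* (-0.055) between intact genotypes, for *Pax9* (0.0705), *Sox5* (-0.062) and *Sox9* (-0.015) between injured genotypes and for *Sox9* in the difference of injury effects (-0.15). Leaving out each mouse gave, for wild-type injury, ranges of -0.12 to 0.17 (*Pax1*), -0.0566 to 0.0587 (*Sox5*), -0.17 to 0.19 (*Sox6*) and -0.12 to 0.12 (*Trps1*). Between intact genotypes the ranges were -0.17 to 0.068 (*Nkx3-2*), -0.0269 to 0.17 (*Sox6*), -0.046 to 0.17 (*Sox9*) and -0.0617 to 0.11 (*Trps1*). Between injured genotypes they were -0.11 to 0.0651 (*Pax9*) and -0.0216 to 0.0944 (*Sox5*).

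The share of higher genes among those called moved with the scaling, from 42.6% to 52.1% with median-of-ratios scaling for injury in mutants and from 20.7% to 47.5% between injured genotypes, or to 34.4% with quantile scaling. Quantile scaling moved the median of all genes between injured genotypes by 0.12. Over all genes, the calls for wild-type injury ranged from 2 to 463 when 1 mouse was left out, those between injured genotypes from 7 to 2272, and those for injury in mutants were 743 among mutants named M and 3649 among those named A8. With 3 to 5 mice a group and a table of TPM alone, small differences of *Sox5*, *Trps1* and *Pax9* could not be resolved.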
